A study of Mus musculus with 4 samples.

Results

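Natural killer (NK) cells were chosen by measured values, as the kept cells with a UMI of at least 2 of the 5 genes *Ncr1*, *Klrb1c*, *Klre1*, *Eomes* and *Gzma* and with no UMI of *Cd3d*, *Cd3e*, *Trac*, *Foxp3* or *C1qa*. A UMI (unique molecular identifier) stands for 1 counted RNA molecule. Of 6443 kept cells, 127 met this rule, a share of 1.97% (95% exact Clopper-Pearson interval 1.65% to 2.34%). A kept cell had between 200 and 3000 genes with a UMI and no more than 10% of its UMIs from mitochondrial genes, which 6443 of 7178 deposited cells met. Deposited cells numbered between 1098 and 2422 per library, far fewer than the paper counted, and the paper separated immune cells by computation. Whether the deposited cells had been selected in this way is not stated. The NK share of 1.97% is thus not a share of all cells that the paper counted. The series is droplet single-cell RNA sequencing of skin around full-thickness wounds of C57/BL6j mice aged 6 weeks, taken on day 7 after wounding. In the hucMSC-Exo group, 100 µg of hucMSC-Exosomes, which are vesicles released by mesenchymal stem cells of human umbilical cord, were injected around the wound edge. Control mice received injections of phosphate-buffered saline there instead. Each group has 2 libraries, with 1 mouse per library, so the group comparison asks how NK cells of treated and untreated wounds differ between mice.

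NK cells are innate lymphocytes that kill stressed, infected or transformed cells without a rearranged antigen receptor. They weigh signals from activating and inhibitory surface receptors, and on activation they release perforin and granzymes from granules and secrete interferon gamma and chemokines. In skin they are a small population, and circulating NK cells enter inflamed tissue beside resident innate lymphoid cells.

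The groups were taken from the sample titles. Deposited matrix names carry letters that pair the libraries differently, with c on Control 1 and hucMSC-Exo 1 and t on Control 2 and hucMSC-Exo 2, so every direction between the groups depends on the titles being right. By the letters, the NK shares were 3.47% and 1.06% for c and 2.46% and 1.40% for t, which overlap, and neutrophils took 4.83% and 4.80% of kept cells for c and 13.2% and 23.3% for t. The neutrophil shares thus overlap between the groups by title and not by letter. The paper reports significantly more neutrophils in the hucMSC-Exosomes group than in the control group, several times as many. Neutrophils here numbered 46 and 68 for c and 273 and 467 for t, against 46 and 273 for Control and 68 and 467 for hucMSC-Exo. By count, a gap of that size is nearer to the letters, if t marks treatment, than to the titles. The counts are not alike, however, since the paper took annotated clusters among all the cells it counted. Neutrophils here were kept cells with a UMI of at least 2 of *Csf3r*, *Cxcr2*, *Retnlg* and *Trem1*, none of *Cd3e* and *C1qa*, and not NK cells. Kept cells also differed in number between libraries. Which of the 2 labels is right was not settled. For tissue, the labels give sections of the gut, whereas for cell type and in the protocol they give skin. In NK cells, the 5 gut epithelium genes found in the files (*Vil1*, *Lgr5*, *Cdx1*, *Muc2* and *Fabp2*) had 0 UMIs. Any pair of libraries shared between 0 and 2 cell barcodes, and no NK cell had a shared barcode.

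Values of the 4 libraries are given in the order Control 1, Control 2, hucMSC-Exo 1 and hucMSC-Exo 2. Kept cells numbered 952, 2074, 1416 and 2001, with 4779405, 11243740, 6459007 and 9053510 UMIs. NK cells numbered 33, 51, 15 and 28. They held 154972, 287503, 76140 and 148423 UMIs, with a median of 4043, 5236, 4207 and 4360 UMIs per cell. The median depth of an NK cell was highest in Control 2, and hucMSC-Exo 1 had the fewest NK cells. Levels are in CPM, counts scaled to the total count of the same sum of cells, and 3 counts, the floor for a value of 0, correspond to 19.4, 10.4, 39.4 and 20.2 CPM in the NK cells of the 4 libraries.

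The 5 genes of the rule are given as a description, since they chose the cells. *Ncr1*, which encodes the activating receptor NKp46, was at 284, 83.5, 158 and 175 CPM, with a UMI in 43.3% of NK cells. *Klrb1c*, the gene of the NK1.1 antigen, was found in 63.8% of them at 355, 205, 184 and 283 CPM. *Klre1*, which encodes a lectin-like receptor, stood at 342, 379, 184 and 472 CPM and in 81.1% of NK cells. In the 854 neutrophils, which serve as a measure of free RNA, these receptor genes had a UMI in 0%, 0% and 0% of cells, and a share of 0 in 854 cells allows up to 0.351% of cells with a UMI. *Eomes*, a T-box transcription factor of the NK lineage, was at 252, 299, 210.1 and 303 CPM and in 61.4% of NK cells. *Gzma*, which encodes granzyme A, reached 3420.0, 6261, 1734 and 4332 CPM and was found in 81.1% of NK cells against 0.234% of neutrophils. Every library held UMIs of all 5 genes, and *Gzma* was lowest in hucMSC-Exo 1.

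Among kept cells with the excluded genes at 0, 2512 had none of the 5 markers, 53 had 1, 31 had 2, 38 had 3, 46 had 4 and 12 had 5. The 31 cells just inside the threshold had a UMI of *Nkg7* in 96.8%, of *Prf1* in 67.7% and of *Ccl5* in 74.2% of cells. In the 53 cells just outside it, the shares were 39.6%, 13.2% and 20.8%, and *Lyz2*, a gene of macrophages and monocytes, was found in 32.1% of these cells against 0% of the 31. *Il2rb* was found in 49.1% outside and 93.5% inside, *Xcl1* in 34.0% and 74.2%, *Ctla2a* in 37.7% and 93.5% and *Trbc1* in 32.1% and 80.6%. Less far apart or reversed were 4 other genes. *Klrd1* was found in 71.7% outside and 54.8% inside, *Tyrobp* in 96.2% and 93.5%, *Fcer1g* in 94.3% and 100% and *Klrk1* in 69.8% and 87.1%. The neutrophil gene *S100a8* was found in 17.0% of the cells outside and 35.5% inside, at 298 and 78.3 CPM. The median depth was 6121 UMIs outside and 4579 inside. Before the exclusion, 187 kept cells had at least 2 markers, and 60 of them were left out for a UMI of *Cd3d* (48 cells), *Trac* (45), *Cd3e* (36), *C1qa* (7) or *Foxp3* (4).

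Markers that the rule did not use were read as a check of the name. *Nkg7*, a granule membrane gene, had a UMI in 97.6% of NK cells and 0.351% of neutrophils, and *Il2rb*, the shared receptor chain for interleukin 2 and interleukin 15, in 95.3% and 0.585%. The median depth was 4579 UMIs in NK cells and 2212.5 in neutrophils. After 1000 UMIs were drawn from each cell, *Nkg7* was found in 75.7% and 0.0540% of cells. Of 11 T cell genes, 7 were at 0 in all NK cells, among them *Cd8a*, *Cd8b1*, *Cd4* and *Cd5*, which the rule did not use, and *Cd3g* was found in 2.36%. The T cell receptor constant gene *Trbc1* had a UMI in 81.1% of NK cells and *Trbc2* in 39.4%, against 0.351% and 0.585% of neutrophils. The genes of group 3 innate lymphoid cells (*Il22*, *Il23r*), B cells (*Cd79a*, *Cd79b*), plasmacytoid dendritic cells (*Siglech*, *Ccr9*) and erythrocytes (*Hbb-bs*, *Hba-a1*) were all at 0 in NK cells, where 0 of 127 cells allows up to 2.36% of cells with a UMI. Other lists were not empty. *Trdc*, a constant gene of the gamma delta T cell receptor, had a UMI in 17.3% of NK cells against 0.234% of neutrophils, and *Gata3*, a gene of the ILC2 list, in 29.1% against 2.34%. Dendritic *Ccr7* was found in 3.15% and 0.468%, mast cell *Cma1* in 4.72% and 0%, and endothelial *Pecam1* in 11.0% and 1.76%. Keratinocyte *Krt14* was found in 77.2% of NK cells and 73.3% of neutrophils, fibroblast *Col1a1* in 37.0% and 31.1% and macrophage *Apoe* in 46.5% and 49.3%. At 1000 UMIs per cell, the shares were 32.4% and 45.6% for *Krt14*, 10.9% and 15.6% for *Col1a1* and 14.9% and 27.9% for *Apoe*, each lower in NK cells. By level, the keratinocyte list summed to 858, 477, 669.8 and 391 CPM in NK cells and 1879, 1197, 1282 and 1246 CPM in neutrophils, and the fibroblast list to 161, 341, 184 and 289.7 CPM and 322, 693, 330.3 and 394 CPM.

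In Control 1, 3.47% of kept cells were NK cells (95% exact Clopper-Pearson interval 2.40% to 4.83%), and in Control 2, 2.46% (1.84% to 3.22%). Their share was 1.06% in hucMSC-Exo 1 (0.594% to 1.74%) and 1.40% in hucMSC-Exo 2 (0.932% to 2.02%). Both Control libraries lay above both hucMSC-Exo libraries under the rule given. With *Cd3g*, *Trbc1*, *Trbc2*, *Cd8a* and *Cd4* also at 0, only 6, 4, 1 and 4 NK cells remained, the groups overlapped and the difference was -0.276 percentage points. Under the rule given, the mean share was 2.96% ± 0.712 (SD, n = 2) in Control and 1.23% ± 0.240 (SD, n = 2) in hucMSC-Exo, a difference of -1.73 percentage points. For the NK share of kept cells in the 4 libraries, two-sided exact permutation gave p = 0.3333, the smallest p that 2 libraries against 2 can give. Neutrophils took 4.83, 13.2, 4.80 and 23.3% of the kept cells, and among cells outside the neutrophils the NK share was 3.64, 2.83, 1.11 and 1.83%. With that denominator, chosen after seeing the data, both Control libraries again lay above both hucMSC-Exo libraries.

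**Figure D1:**
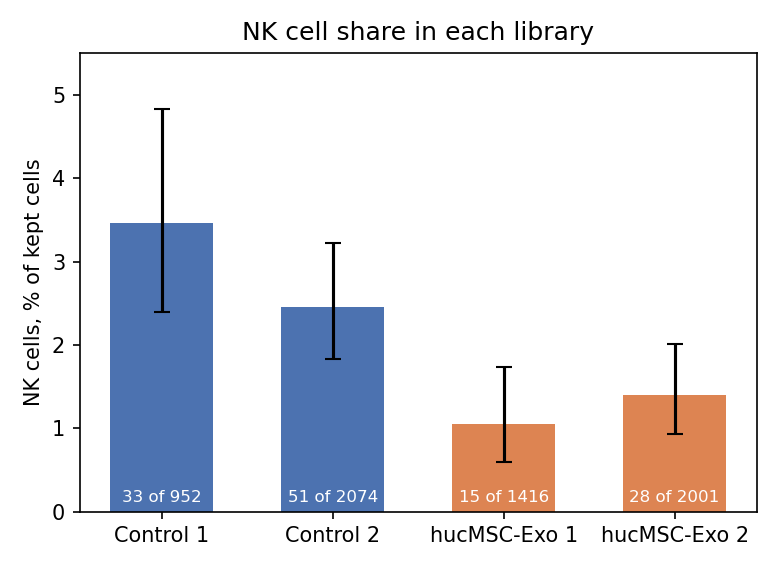
NK cells as a percentage of the kept cells of each library, with the number of NK cells and of kept cells at each bar and 95% exact Clopper-Pearson intervals as error bars. The Control libraries were at 3.47% and 2.46% and the hucMSC-Exo libraries at 1.06% and 1.40%.

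To place the NK cells, their UMIs were summed per library and set against sums of 2 neighbouring classes. CD8/NKT-like T cells (142 cells, here T cells) had a UMI of *Trac*, of *Cd3d* or *Cd3e*, and of *Cd8a*, *Cd8b1* or *Klrb1c*, and none of *Cd4*, *Foxp3* and *C1qa*. Group 2 innate lymphoid cells (131 cells, here ILC2) had a UMI of at least 2 of *Gata3*, *Il1rl1*, *Il13*, *Il5*, *Il17rb* and *Hs3st1* and none of *Cd3d*, *Cd3e*, *Trac*, *Foxp3*, *C1qa*, *Mcpt8* and *Cpa3*, and were not NK cells. Of the cells in this ILC2 class, 71.8% had a UMI of *Itgae* and 59.5% of *Trbc1*, so the class is named by its rule. The ILC2 sums also held RNA of other lineages, unevenly between libraries, with 0, 128, 0 and 181 CPM of the plasmacytoid dendritic cell list, 24.8, 641, 60.8 and 1751 CPM of the neutrophil list and 12.4, 452, 0 and 555 CPM of *Tyrobp*. In T cells the neutrophil list summed to 13.5, 1239.5, 98.1 and 109 CPM. How far this moved the fold changes against the 2 classes was not tested. Median depths were 4449 UMIs in T cells and 4790 in ILC2, near the 4579 of NK cells. The genes that define the classes were left out of the tests, and the remaining genes describe how these gates differ. The test was edgeR's quasi-likelihood test with the library as a block and Benjamini-Hochberg adjustment over all genes tested, at an adjusted p under 0.05.

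Against T cells, 181 of 1912 genes were called (9.47%), 91 higher in NK cells (4.76%) and 90 lower (4.71%). The direction was the same in all 4 libraries for 90 of the 91 and 88 of the 90. Against ILC2, 335 of 1865 genes were called (18.0%), 174 higher (9.33%) and 161 lower (8.63%), with the same direction in 4 libraries for 172 and 151. Without Control 2, 201 genes were called against ILC2. Both comparisons use the same NK sums, so they are not independent. A gene with few or no UMIs in either class of a comparison passed the filter on low counts through the other class, which set its direction. The median log2 fold change over all genes tested was 0.0094 against T cells and 0.042 against ILC2, and the lists of genes described next are read against these shares and medians.

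Activating receptors and their signalling adaptors had 7 genes higher than in T cells and 0 lower. Of 20 listed genes, 19 were in the files and 10 were tested against T cells, with 3 not called and a median log2 fold change of 1.54. In T cells, *Klra4* and *Klra8* had 0 UMIs and *Klri2* had 4, so these 3 of the 7 passed the filter on low counts through NK cells and could only be called higher. Against ILC2, 8 were tested and 7 were higher, with a median of 5.21, or 4.54 with the genes at 0 in ILC2 set at their lower bound. In ILC2, *Klra4*, *Klra8* and *Klri2* had 0 UMIs and *Klrd1* had 3, so these genes passed the filter on low counts through NK cells and could only be called higher. Their part in this number and median is a result of that filter. *Klra8*, which encodes the receptor Ly49H, was at 336, 212, 341 and 296 CPM in NK cells and had 0 UMIs in T cells and ILC2. With 3 counts over the whole class as the floor, it was at least 65.7-fold higher than in T cells and at least 62.6-fold higher than in ILC2. *Klra4*, which encodes Ly49D, was at 194, 289, 249.5 and 472 CPM in NK cells and also had 0 UMIs in both other classes, at least 72.6-fold and at least 69.1-fold higher. All 4 libraries held both genes, but *Klra* genes are close paralogs, so reads may be split between them and their single levels are uncertain. *Klri2*, a gene of a lectin-like receptor, was at 161, 108, 171 and 182 CPM in NK cells and 0, 14.5, 0 and 0 CPM in T cells. It was higher in 4 of 4 libraries, and its log2 fold change against T cells was 4.62 ± 0.58 (SE; edgeR, Benjamini-Hochberg adjusted p = 5.47e-05), or 7.59 without Control 2.

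The adaptor *Fcer1g*, which carries signals of several activating receptors, was at 1871, 1597, 1418 and 1758 CPM in NK cells and at 758, 291, 303 and 321 CPM in T cells. Each NK sum lay above each T cell sum, and the log2 fold change was 2.13 ± 0.20 (SE; edgeR, Benjamini-Hochberg adjusted p = 2.93e-06; 4 of 4 libraries). *Tyrobp*, which encodes the adaptor DAP12, was at 2239, 2240.0, 2429.7 and 1725 CPM in NK cells and at 419.6, 47.3, 205 and 48.9 CPM in T cells. It was higher in NK cells in all 4 libraries, by a log2 fold change of 3.96 ± 0.37 (SE), or 4.75 without Control 1. Neutrophils express *Fcer1g* and *Tyrobp* in 97.5% and 99.6% of cells. *Klrk1*, which encodes NKG2D, was at 490.4, 522, 473 and 478 CPM in NK cells and 237, 316, 419 and 348 CPM in T cells. It was higher in each library by 0.66 ± 0.19 (SE) on the log2 scale, but this call, at an adjusted p (edgeR, Benjamini-Hochberg) of 0.0328, was lost without Control 1 (0.129), without Control 2 (0.103) or without hucMSC-Exo 2 (0.108). *Klrd1*, the gene of CD94, also passed against T cells at 0.0297 (edgeR, Benjamini-Hochberg; log2 fold change 0.87 ± 0.24, SE, 4 of 4 libraries) and lost the call without hucMSC-Exo 1 (0.0971) or without hucMSC-Exo 2 (0.0830). In ILC2, *Klrd1* had 3 UMIs, all in hucMSC-Exo 2, and its pooled level in NK cells was 85.5-fold (95% counting interval 28.9 to 417) that of ILC2. The edgeR log2 fold change was 6.39 ± 0.67 (SE), or 5.13 without hucMSC-Exo 1 and 9.52 without hucMSC-Exo 2. *Hcst*, which encodes the NKG2D adaptor DAP10, was not called in either comparison. *Ncr3* is missing from the files.

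Inhibitory receptors numbered 14, of which 5 were tested against T cells and 4 against ILC2. Of these, 3 were higher than in T cells, 1 lower and 1 not called (median log2 fold change 2.17), and 4 of 4 were higher than in ILC2 (median 6.37, or 5.22 with genes at 0 set at their bound). Of the 4, *Klra7* and *Klra9* had no UMI in ILC2, and *Klrc1* was at 0, 6.75, 5.53 and 21.4 CPM there. These genes passed the filter on low counts through NK cells and could therefore only be called higher. *Klrb1b*, an inhibitory receptor that binds a lectin-like ligand on other cells, was at 361, 327, 197 and 216 CPM in NK cells and at 54.1, 65.4, 53.5 and 76.1 CPM in T cells. The classes did not overlap, and the log2 fold change was 2.17 ± 0.25 (SE; edgeR, Benjamini-Hochberg adjusted p = 2.81e-05; 4 of 4 libraries). *Klra7*, which encodes Ly49G, was at 187, 188, 144 and 202 CPM in NK cells and at 40.6, 36.3, 0 and 21.7 CPM in T cells. NK cells were again above T cells in every library, by 2.77 ± 0.37 (SE) on the log2 scale. *Klra9* was at 27.1, 14.5, 0 and 65.2 CPM in T cells. Both *Klra7* and *Klra9* entered the test against T cells through NK cells and could not have been called lower. In ILC2 the genes *Klra7* and *Klra9* had 0 UMIs, so NK cells were at least 42.4-fold and at least 49.2-fold higher. *Klrc1*, which encodes NKG2A, stood at 316, 261, 263 and 216 CPM in NK cells and 115, 334, 268 and 190.3 CPM in T cells. These values overlapped and the gene was not called against T cells, while it was 5.04 ± 0.45 (SE) higher on the log2 scale than in ILC2. *Cd96*, a receptor for nectins, went the other way against T cells, with 12.9, 24.3, 13.1 and 33.7 CPM in NK cells and 74.5, 116, 98.1 and 87.0 CPM in T cells. It was lower in every library, at -2.04 ± 0.41 (SE) on the log2 scale. NK cells held 15 UMIs of *Cd96*, so it entered the test through T cells and could only be called lower. The checkpoint genes *Pdcd1*, *Lag3*, *Tigit* and *Havcr2* were found in 2.36%, 4.72%, 4.72% and 0.787% of NK cells and could not be tested at this depth.

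Many of these receptor genes lie together in the NK gene complex on chromosome 6. Between the start of *Klrb1c* and the end of *Klra1*, at chr6:128778485-130386874 (GRCm38, the build also called mm10), 12 genes were tested against T cells, of which 8 were higher in NK cells and 0 lower. Against ILC2, 11 were tested and 9 were higher and 0 lower. These counts are in part set by the filter on low counts, since *Klra4*, *Klra8* and *Klri2* among the 8, and with *Klra7*, *Klra9* and *Klrd1* 6 of the 9, had between 0 and 4 UMIs in the other class and could not be called lower. *Klrc1*, also among the 9, was at 0, 6.75, 5.53 and 21.4 CPM in ILC2 and likewise could not be called lower. The same holds for *Klra7* and *Klra9* among the 8. In T cells they were at 40.6, 36.3, 0 and 21.7 CPM and at 27.1, 14.5, 0 and 65.2 CPM. *Klra8* lies at chr6:130115226-130129898 and *Klra4* at chr6:130043731-130067271, both on the minus strand. The number of *Klra* genes with a UMI differed from cell to cell. It was 0 in 36 NK cells, 1 in 25, 2 in 36 and 3 or more in 30. In T cells it was 0 in 124 of 142 cells, and all 131 ILC2 and all 854 neutrophils had none. Since an NK cell held few UMIs of each gene, a count of 0 in a cell does not show that the gene was silent there.

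The promoters of *Klra8* and *Klra4* are shown because both genes had UMIs in the NK cells of every library and none in T cells and ILC2. The 250 bases before each gene start were taken from RefSeq (GRCm38.p6), 5′ to 3′ on the strand of the gene, at chr6:130129899-130130148 and chr6:130067272-130067521, both minus strand. Capitals mark the longest run that both share, of 27 bases.
Klra8: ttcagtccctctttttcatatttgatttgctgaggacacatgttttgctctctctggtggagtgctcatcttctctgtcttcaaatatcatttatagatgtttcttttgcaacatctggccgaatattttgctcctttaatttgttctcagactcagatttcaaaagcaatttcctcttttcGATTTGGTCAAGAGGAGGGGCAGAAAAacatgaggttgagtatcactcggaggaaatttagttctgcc
Klra4: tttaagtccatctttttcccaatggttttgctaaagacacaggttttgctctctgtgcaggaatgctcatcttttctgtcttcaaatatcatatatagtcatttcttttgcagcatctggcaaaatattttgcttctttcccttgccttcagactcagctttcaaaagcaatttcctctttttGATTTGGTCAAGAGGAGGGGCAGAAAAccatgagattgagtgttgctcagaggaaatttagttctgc

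The promoters of *Ncr1* and of *Prf1* are shown as those of a gene of the rule and of a granule gene. The letters TGTGGT, a core sequence known for Runx transcription factors, and their reverse complement ACCACA were searched on both strands, and capitals mark them. *Ncr1* lies on the plus strand at chr7:4337465-4337714 with 2 matches, and *Prf1* on the plus strand at chr10:61297586-61297835 with 1 match. Of all 32851 promoters of this length in the RefSeq table (GRCm38.p6), 4614 (14.0%) hold the motif, and a match is a description of letters, not of a bound site. Of the 10 called genes with the largest log2 fold change over T cells, 6 were in that table, and 0 of the 6 held the motif.
Ncr1: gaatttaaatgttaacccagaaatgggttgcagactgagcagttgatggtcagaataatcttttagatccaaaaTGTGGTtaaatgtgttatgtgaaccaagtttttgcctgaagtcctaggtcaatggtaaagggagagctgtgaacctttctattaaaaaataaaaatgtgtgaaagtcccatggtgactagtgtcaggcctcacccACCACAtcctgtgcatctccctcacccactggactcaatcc
Prf1: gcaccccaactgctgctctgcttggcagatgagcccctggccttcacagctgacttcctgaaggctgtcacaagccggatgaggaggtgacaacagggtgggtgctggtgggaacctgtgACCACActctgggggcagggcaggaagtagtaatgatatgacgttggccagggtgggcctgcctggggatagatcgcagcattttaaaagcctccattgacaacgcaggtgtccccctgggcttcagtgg

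Cytotoxic granule genes and the death ligand gene *Fasl* made a list of 16, all in the files. Of 12 tested against T cells, 6 were higher, 0 lower and 6 not called, with a median log2 fold change of 0.70. Of 11 tested against ILC2, 9 were higher and 1, *Srgn*, lower, with a median of 3.83, or 3.83 with *Fasl* at its bound. Of the 9, *Fasl* had 0 UMIs in ILC2, *Prf1* 1, *Gzmb* 1 and *Gzmc* 3, so these 4 entered the test through NK cells and could not have been called lower. *Prf1*, which encodes the pore-forming protein perforin, was at 277, 463, 263 and 445 CPM in NK cells and at 135, 76.3, 17.8 and 92.4 CPM in T cells. No T cell sum reached an NK sum, and the log2 fold change was 2.23 ± 0.30 (SE; edgeR, Benjamini-Hochberg adjusted p = 9.48e-05; 4 of 4 libraries). A UMI of *Prf1* was found in 71.7% of NK cells, 20.4% of T cells and 0.117% of neutrophils. *Gzmb*, the gene of granzyme B, was at 516, 803, 263 and 977 CPM in NK cells and at 88.0, 545, 107 and 517 CPM in T cells. Within each library NK cells were higher, although the classes overlapped across libraries, and the log2 fold change was 1.21 ± 0.25 (SE). *Nkg7* followed with 1936, 1725, 1326 and 1967 CPM in NK cells and 1164, 1225, 776 and 1348 CPM in T cells, higher in 4 of 4 libraries by 0.67 ± 0.13 (SE) on the log2 scale.

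The inhibitors that protect a killer cell from its own granzymes were also higher than in T cells. *Serpinb9*, which encodes an inhibitor of granzyme B, was at 239, 703, 407 and 391 CPM in NK cells and at 40.6, 153, 161 and 223 CPM in T cells. *Serpinb6b*, which encodes another serine protease inhibitor of the same family, was at 374, 991, 998 and 438 CPM and at 108, 153, 178 and 256 CPM. Both were above T cells in 4 of 4 libraries, with log2 fold changes of 1.70 ± 0.25 and 2.00 ± 0.27 (SE). *Fasl* was at 219, 125, 105 and 101 CPM in NK cells and 81.2, 171, 26.8 and 163 CPM in T cells, which overlapped, and it was not called against T cells. ILC2 had 0 UMIs of *Fasl*, so NK cells were at least 31.8-fold higher there. *Prf1*, *Gzmb* and *Gzmc* had between 1 and 3 UMIs each in ILC2. Pooled NK levels were higher by 269-fold (95% counting interval 47.8 to 10657) for *Prf1*, 488-fold (95% counting interval 87.2 to 19328) for *Gzmb* and 235-fold (95% counting interval 79.9 to 1140.4) for *Gzmc*. On the log2 scale, edgeR gave 7.32 ± 0.50 (SE) for *Prf1*, or 8.99 without hucMSC-Exo 1, 7.89 ± 0.48 (SE) for *Gzmb*, or 9.35 without hucMSC-Exo 2, and 8.24 ± 0.42 (SE) for *Gzmc*, or 10.21 without hucMSC-Exo 1. *Ctsd*, the gene of the protease cathepsin D, was called higher than in T cells, which was lost (edgeR, Benjamini-Hochberg) without Control 2 (0.143) or without hucMSC-Exo 2 (0.161). *Srgn*, which encodes the granule proteoglycan serglycin, lost its call below ILC2 (edgeR, Benjamini-Hochberg) without Control 2 (0.190) or without hucMSC-Exo 2 (0.116). *Gzmk* was found in 2.36% of NK cells and 20.4% of T cells and could not be tested.

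*Gzmc*, which encodes granzyme C, was held by few cells. A UMI was found in 5, 5, 6 and 6 NK cells, or 22 of 127, and these cells held 29, 273, 141 and 243 UMIs. The top cell of each library held 16, 138, 73 and 123 of them, so about as many came from 1 cell as from all others together. In T cells the levels were 731, 3.63, 223 and 185 CPM and the difference was not called. The following comparison of cells was chosen after the values were seen and is a description across cells that share libraries. *Gzma* had a UMI in 9 of the 22 cells with *Gzmc* and in 94 of the 105 without. In the same order, *Klra8* was found in 2 and 47 cells and *Ccl5* in 13 and 97. *Ikzf2*, a gene of a zinc finger transcription factor, was found in 15 and 20, and *Ncr1* in 17 and 38. Because the rule asks for 2 of 5 genes, *Gzma* and *Ncr1* among them, cells low in the first must hold others of the 5, so opposite shares of these genes are partly set by the rule. The integrin gene *Itga1* was found in 7 and 7, *Cxcr6* in 7 and 8 and *Inpp4b*, a phosphatase gene, in 7 and 4. Cells with *Gzmc* had a higher median depth, 6106 against 4495 UMIs. At 1000 UMIs per cell, *Gzma* was found in 31.8% and 80.5%, *Klra8* in 4.08% and 23.6%, *Ikzf2* in 25.9% and 6.97% and *Cxcr6* in 11.3% and 2.02%.

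Cytokine and chemokine genes numbered 14, all in the files. Against T cells, 9 were tested, 6 were higher, 2 (*Areg* and *Ltb*) lower and 1 not called, with a median log2 fold change of 1.34. Of the 10 tested against ILC2, 5 were higher, 3 (*Areg*, *Csf2* and *Ltb*) lower and 2 not called, with a median of 2.36. Of the 5, *Ifng* had 0 UMIs in ILC2 and *Ccl5* 6, so they entered the test through NK cells and could not have been called lower. NK cells held 31 UMIs of *Areg* and 8 of *Csf2*, so these genes entered through the other class and could only be called lower. *Ifng*, which encodes interferon gamma, was at 303, 216, 118 and 269.5 CPM in NK cells and at 122, 36.3, 89.2 and 152 CPM in T cells. NK cells were higher in 4 of 4 libraries by a log2 fold change of 1.38 ± 0.29 (SE; edgeR, Benjamini-Hochberg adjusted p = 0.00474), although some T cell sums exceeded the NK sum of hucMSC-Exo 1. ILC2 had 0 UMIs, so NK cells were at least 54.0-fold higher there. *Xcl1*, the ligand that attracts cross-presenting dendritic cells, was at 2207, 1405, 2942 and 1806 CPM in NK cells and at 413, 131, 687 and 707 CPM in T cells. Every NK sum lay above every T cell sum, and the log2 fold change was 2.31 ± 0.23 (SE; edgeR, Benjamini-Hochberg adjusted p = 5.50e-06; 4 of 4 libraries). A UMI of *Xcl1* was found in 72.4% of NK cells, 30.3% of T cells and 0% of neutrophils.

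*Ccl5*, a chemokine gene shared by cytotoxic lymphocytes, was at 4498, 4122, 2732 and 3072 CPM in NK cells and at 3594, 5423, 1918 and 4948 CPM in T cells. The classes overlapped and it was not called against T cells. *Vegfa*, which encodes a growth factor of blood vessels, was at 103, 313, 131 and 162 CPM in NK cells and at 6.77, 10.9, 17.8 and 10.9 CPM in T cells. It was higher in 4 of 4 libraries by 4.10 ± 0.39 (SE) on the log2 scale, or 3.52 without Control 2. T cells held 8 UMIs of *Vegfa*, so it entered that test through NK cells and could not have been called lower. Neutrophils had a UMI of *Vegfa* in 21.8% of cells against 42.5% of NK cells and 3.52% of T cells. Against ILC2 the call of *Vegfa* (edgeR, Benjamini-Hochberg) was lost without Control 2 (0.0669). *Tgfb1*, the gene of a growth factor that restrains lymphocytes, was at 277, 469.6, 447 and 229 CPM in NK cells and 129, 113, 196 and 152 CPM in T cells, higher without overlap by 1.34 ± 0.24 (SE) on the log2 scale. *Ccl3* and *Ccl4*, chemokine genes that 46.5% and 32.2% of neutrophils also hold, were called higher than in T cells. The call of *Ccl3* (edgeR, Benjamini-Hochberg) was lost without Control 1 (0.155) or without hucMSC-Exo 2 (0.111), and that of *Ccl4* without hucMSC-Exo 1 (0.0796). *Areg*, which encodes the growth factor amphiregulin, was at 0, 48.7, 131 and 47.2 CPM in NK cells and at 285, 587, 473 and 406 CPM in ILC2. It was lower in every library at -3.15 ± 0.43 (SE) on the log2 scale, while its call below T cells (edgeR, Benjamini-Hochberg) was lost without Control 2 (0.0743). *Ltb*, the gene of lymphotoxin beta, was below T cells in each library at -1.78 ± 0.28 (SE) on the log2 scale, and *Il10* and *Tnf* were too low to test.

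NK cells with and without a UMI of *Ifng* were set side by side, with the cells of all libraries pooled, a description chosen after the values were seen. Of 127 NK cells, 40 had a UMI, or 13, 13, 4 and 10 by library. *Xcl1* was found in 35 of these 40 cells and 57 of the other 87, *Ccl3* in 14 and 9 and *Ccl4* in 18 and 19. *Nr4a1*, an early gene of receptor signalling, was found in 26 and 28, the activation marker *Cd69* in 17 and 30 and the heat shock gene *Hspa1a* in 19 and 22. The median depth was 4948 and 4339 UMIs, and at 1000 UMIs per cell the shares were 72.4% and 44.9% for *Xcl1*, 18.5% and 5.54% for *Ccl3*, 26.3% and 11.8% for *Nr4a1* and 17.6% and 11.1% for *Cd69*. The libraries contribute unequally to the 40 cells, and differences between libraries were not separated from differences between cells. Perforin and granzyme genes were close in both, with *Prf1* in 30.9% and 32.0% at that depth and *Gzma* in 70.9% and 72.5%.

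**Figure D2:**
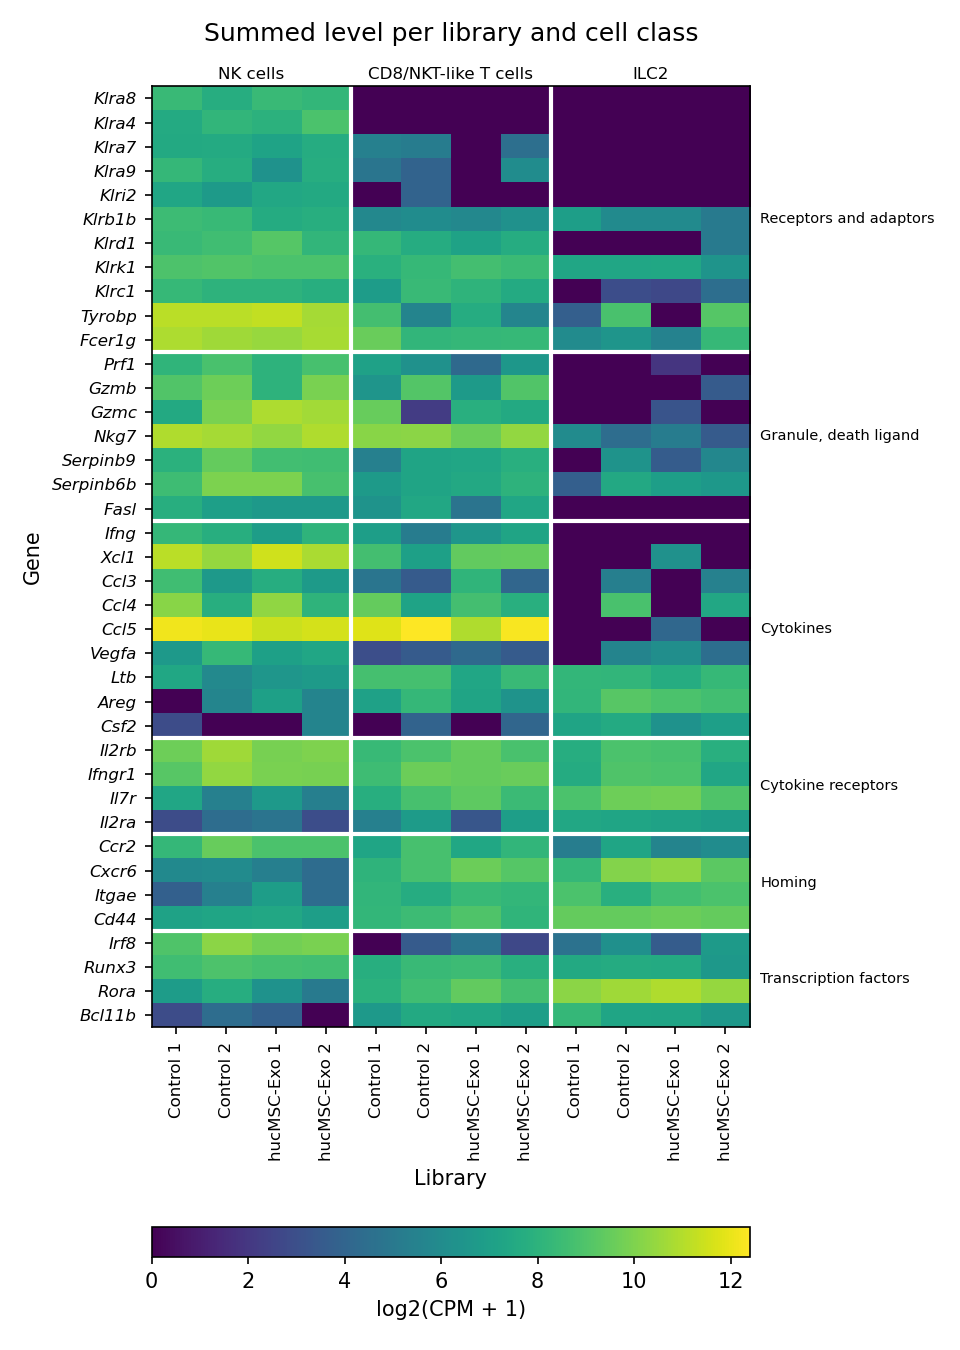
Levels as log2(CPM + 1) of genes from the lists, by role, in the summed NK cells, CD8/NKT-like T cells and ILC2 of each of the 4 libraries. *Klra8* and *Klra4* were at 0 in T cells and ILC2 in every library, while *Cxcr6* was at 58.1, 62.6, 39.4 and 20.2 CPM in NK cells and at 264, 439.8, 794 and 565 CPM in T cells.

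Cytokine receptors and their feedback genes made a list of 21, of which 12 were tested against T cells (2 higher, 1 lower, median log2 fold change 0.52) and 13 against ILC2 (3 higher, 3 lower, median -0.062). *Il2rb* was at 807, 1589.5, 932 and 1024 CPM in NK cells and at 332, 473, 705 and 451 CPM in T cells. All NK sums exceeded all T cell sums, and the log2 fold change was 1.23 ± 0.20 (SE; edgeR, Benjamini-Hochberg adjusted p = 0.000615; 4 of 4 libraries). *Il2rg*, the gene of the common gamma chain that pairs with it, was at 245, 278, 289 and 249 CPM in NK cells and was not called in either comparison. *Il7r*, the interleukin 7 receptor gene, was at 161, 41.7, 105 and 40.4 CPM in NK cells and at 217, 439.8, 642 and 353 CPM in T cells. It was lower in all 4 libraries at -2.25 ± 0.36 (SE) on the log2 scale, or -3.00 without Control 1. *Il2ra*, the high-affinity interleukin 2 receptor chain, was at 6.45, 20.9, 26.3 and 6.74 CPM in NK cells and 174, 155, 141 and 117 CPM in ILC2, lower without overlap at -3.20 ± 0.41 (SE). NK cells held 10 UMIs of *Il2ra*, so it entered that test through ILC2 and could only be called lower. *Ifngr1*, an interferon gamma receptor gene, was called higher than in T cells, which was lost (edgeR, Benjamini-Hochberg) without Control 2 (0.200) or without hucMSC-Exo 2 (0.0574). *Jak1*, the gene of a kinase of these receptors, lost its call above ILC2 (edgeR, Benjamini-Hochberg) without Control 2 (0.133). The interleukin 12 receptor genes *Il12rb1* and *Il12rb2* were found in 5.51% and 26.8% of NK cells and were not tested against T cells and ILC2.

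Homing and adhesion genes moved both ways, with 4 higher and 3 lower among 11 tested of 18 against T cells (median log2 fold change 0.42) and 5 higher and 3 lower among 11 against ILC2 (median 0.84). *Ccr2*, a receptor for recruitment into inflamed tissue, was at 309.7, 727, 473 and 472 CPM in NK cells and at 156, 451, 169.5 and 288 CPM in T cells. It was higher in 4 of 4 libraries by 0.95 ± 0.19 (SE) on the log2 scale, while the classes overlapped across libraries.

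The listed homing genes called lower than in T cells were *Cxcr6*, *Itgae* and *Cd44*, while *Cd69*, known from resident lymphocytes, was not called in either comparison. *Cxcr6*, a chemokine receptor of resident lymphocytes, was at 58.1, 62.6, 39.4 and 20.2 CPM in NK cells and 264, 439.8, 794 and 565 CPM in T cells. It was below T cells in 4 of 4 libraries by a log2 fold change of -3.22 ± 0.31 (SE; edgeR, Benjamini-Hochberg adjusted p = 2.93e-06). *Itgae*, the integrin chain that binds E-cadherin, was at 12.9, 41.7, 118 and 20.2 CPM in NK cells and at 284, 204, 330.1 and 294 CPM in T cells, lower without overlap at -2.66 ± 0.35 (SE). At these levels in NK cells, *Cxcr6* and *Itgae* entered the test through T cells and could only be called lower. The count of lower homing genes is thus partly set by the filter on low counts. *Cd44*, an adhesion receptor, was at 142, 157, 171 and 121 CPM against 291, 363, 499.6 and 277 CPM, also lower without overlap at -1.19 ± 0.20 (SE). *Itgb1*, an integrin chain gene, was called higher than in T cells, and this was lost (edgeR, Benjamini-Hochberg) without Control 2 (0.0866) or without hucMSC-Exo 2 (0.0830). *Itgb2*, which encodes an integrin chain of leukocytes, was called higher than in ILC2, lost (edgeR, Benjamini-Hochberg) without hucMSC-Exo 1 (0.113) or without hucMSC-Exo 2 (0.144). *Cx3cr1* and *S1pr5*, receptors known from circulating NK cells, were found in 3.15% and 1.57% of NK cells and were not tested.

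Transcription factor genes numbered 16, of which 13 were tested against T cells (3 higher, 1 lower, median log2 fold change -0.0024) and 11 against ILC2 (3 higher, 2 lower, median 0.16). *Irf8*, a factor with a known part in NK cell responses to virus, was at 503, 1207, 880.0 and 977 CPM in NK cells, 0, 10.9, 26.8 and 5.44 CPM in T cells and 24.8, 74.3, 11.1 and 107 CPM in ILC2. NK cells lay above both classes in every library, and the log2 fold change against T cells was 6.55 ± 0.34 (SE; edgeR, Benjamini-Hochberg adjusted p = 3.56e-09; 4 of 4 libraries), or 7.16 without hucMSC-Exo 1. With 7 UMIs in T cells, *Irf8* passed the filter on low counts through NK cells and could only be called higher than in T cells. It was found in 81.1% of NK cells, 4.23% of T cells and 3.04% of neutrophils. *Bhlhe40*, which encodes a factor of cytokine production, was at 342, 372, 315 and 317 CPM in NK cells and at 156, 185, 232 and 207 CPM in T cells, higher without overlap by 0.87 ± 0.20 (SE). *Runx3*, the gene of a Runx factor, was called higher than in T cells, which was lost (edgeR, Benjamini-Hochberg) without Control 1 (0.109), without Control 2 (0.0712) or without hucMSC-Exo 2 (0.179). It was also higher than in ILC2 without overlap, at 387, 487, 433 and 398 CPM against 186, 196, 193 and 96.1 CPM. *Rora*, a factor of ILC2 development, was at 116, 209, 78.8 and 33.7 CPM in NK cells and at 1227, 1594, 1967 and 1377 CPM in ILC2, lower in every library at -3.75 ± 0.33 (SE) on the log2 scale. Against T cells its log2 fold change was -1.75 ± 0.33 (SE), or -2.37 without Control 2. *Tbx21*, the gene of T-bet, had a UMI in 37.0% of NK cells, 0% of ILC2 and 0% of neutrophils, and was not called against T cells. *Id2*, a regulator of innate lymphoid development, lost its call below ILC2 (edgeR, Benjamini-Hochberg) without Control 2 (0.0977), without hucMSC-Exo 1 (0.123) or without hucMSC-Exo 2 (0.122), and *Klf2*, a factor of lymphocyte traffic, its call above ILC2 without Control 2 (0.0758) or without hucMSC-Exo 1 (0.0586).

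Genes of NK cell maturation were read in 2 lists. Of 8 genes known from immature NK cells, 7 were tested against T cells (0 higher, 3 lower, median log2 fold change -0.84) and 8 against ILC2 (1 higher, 4 lower, median -0.58). *Ctla2a*, a protease inhibitor gene in 97.6% of NK cells, was at 2368, 2299, 1852 and 1879.8 CPM, and its call above ILC2 (edgeR, Benjamini-Hochberg) was lost without Control 2 (0.215), without hucMSC-Exo 1 (0.0544) or without hucMSC-Exo 2 (0.129). *Kit*, a stem cell factor receptor gene, was at 51.6, 153, 118 and 60.6 CPM in NK cells and 99.2, 297, 356 and 139 CPM in ILC2. It was lower in 4 of 4 libraries at -1.10 ± 0.27 (SE) on the log2 scale, which was lost as a call (edgeR, Benjamini-Hochberg) without hucMSC-Exo 1 (0.0605). *Cd27*, a costimulatory receptor gene, was found in 35.4% of NK cells and was not called. *Cd7*, an early lymphocyte surface gene, was called below T cells, lost (edgeR, Benjamini-Hochberg) without Control 1 (0.151) or without hucMSC-Exo 2 (0.135). Of 9 genes known from mature NK cells, 3 were tested against each class and 1, *Gzmb*, was higher (medians -0.97 and 2.04). *Itgam* and *Klrg1*, surface markers of mature NK cells, had a UMI in 8.66% and 5.51% of NK cells, and 50.9% of neutrophils held *Itgam*.

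Of 13 genes of type 1 innate lymphoid cells and tissue residency, 5 were tested against T cells (0 higher, 4 lower, median log2 fold change -2.25) and 7 against ILC2 (0 higher, 5 lower, median -1.74). Among them, *Cxcr6* and *Itgae* entered both tests through the other class and could only be called lower. These counts and medians are thus partly set by the filter on low counts. *Rgs1*, a regulator of chemokine receptor signals, was at 729, 1016, 617 and 660.3 CPM in NK cells and at 1171, 1105, 1891 and 1452 CPM in T cells. No NK sum reached a T cell sum, but the call (edgeR, Benjamini-Hochberg) was lost without hucMSC-Exo 1 (0.0818) or without hucMSC-Exo 2 (0.111). *Tmem176b*, a membrane protein gene, lost its call below ILC2 (edgeR, Benjamini-Hochberg) without Control 1 (0.0625) or without hucMSC-Exo 2 (0.0858). *Itga1*, which encodes CD49a of resident cells, was found in 11.0% of NK cells, 20.4% of T cells and 1.05% of neutrophils, and *Itga2*, which encodes CD49b of conventional NK cells, in 13.4%, 2.82% and 0.468%. Neither could be tested.

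Of 8 proliferation genes, 3 were tested and 0 called against either class (medians 0.045 against T cells and -0.76 against ILC2). At least 2 of 5 cycling genes were found in 3, 2, 2 and 2 NK cells, or 9 of 127, in 12 of 142 T cells and in 17 of 131 ILC2. Interferon-induced genes numbered 10, with 0 higher and 2 lower among 5 tested against T cells (median -0.85) and 0 higher and 2 lower among 4 against ILC2 (median -0.74). *Ifi27l2a*, a gene switched on by interferon, was at 19.4, 27.8, 0 and 6.74 CPM in NK cells and at 887, 1050.5, 285 and 772 CPM in T cells. It was lower in every library by a log2 fold change of -5.54 ± 0.30 (SE; edgeR, Benjamini-Hochberg adjusted p = 3.60e-09; 4 of 4 libraries), while *Irf7* and *Bst2* were not called against T cells. NK cells held 12 UMIs of *Ifi27l2a*, so it entered the test through T cells and could only be called lower. *Ly6a*, which encodes the surface antigen Sca-1, was called below T cells, lost (edgeR, Benjamini-Hochberg) without Control 1 (0.0561) or without hucMSC-Exo 2 (0.113), and below ILC2, lost without Control 2 (0.124). Of 12 immediate early and stress genes, 11 were tested, with 0 called against T cells (median -0.082) and 5 lower than in ILC2 (median -0.93). *Junb*, an early response factor gene, was at 1613, 1325, 1077 and 970.2 CPM in NK cells and at 1909, 2289, 2208 and 3544 CPM in ILC2, lower without overlap at -0.93 ± 0.21 (SE) on the log2 scale. The calls below ILC2 (edgeR, Benjamini-Hochberg) were lost for the phosphatase gene *Dusp1* without Control 2 (0.223) or without hucMSC-Exo 2 (0.159), for *Fos* without Control 2 (0.0944) and for *Nr4a1* without Control 2 (0.110) or without hucMSC-Exo 2 (0.0638). The 6 ligand and partner genes of other cells (*Il15*, *Il18*, *Il12b*, *Xcr1*, *Cxcl9* and *Cxcl10*) were too low to test. Of 99 ribosomal protein genes, 83 were tested, with 4 higher than in T cells and 11 higher than in ILC2 and 0 lower, and medians of 0.17 and 0.18.

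Genes outside these lists were named by the size of their difference. *Car2*, which encodes a carbonic anhydrase, was at 206, 456, 381 and 398 CPM in NK cells and at 0, 18.2, 8.92 and 5.44 CPM in T cells. It was higher in 4 of 4 libraries by 5.26 ± 0.35 (SE) on the log2 scale (edgeR, Benjamini-Hochberg adjusted p = 5.82e-08), or 5.99 without Control 2. *Arl4d*, a small GTPase gene, was at 123, 104, 78.8 and 128 CPM against 6.77, 7.27, 0 and 16.3 CPM, higher without overlap by 3.68 ± 0.48 (SE). *Nrgn*, a calmodulin-binding protein gene, was at 90.3, 170.4, 381 and 101 CPM in NK cells and 40.6, 10.9, 0 and 21.7 CPM in T cells, higher in every library by 3.14 ± 0.52 (SE), or 3.91 without Control 1. T cells held 7 UMIs of *Car2*, 6 of *Arl4d* and 13 of *Nrgn*, so these genes entered the test through NK cells and could only be called higher. On the lower side, genes with few or no UMIs in NK cells (*Cd3g*, *Cd6*, *Ctla4*, *Bcl11b*, *Lat*, *Trat1*, *Ramp3*, *Hlf*, *Bmp2*, *Ero1l*, *Paxbp1* and *Pxdc1*) entered the test through the other class and could only be called lower. NK cells held 3 UMIs of *Cd3g*, a T cell receptor complex gene, and T cells were higher by 297-fold (95% counting interval 101 to 1442), with an edgeR log2 fold change of -8.00 ± 0.34 (SE), or -8.60 without Control 2. Of *Cd6*, a T cell surface gene, NK cells held 1 UMI, and T cells were higher by 161-fold (95% counting interval 28.6 to 6413), at -6.74 ± 0.51 (SE) on the log2 scale, or -7.76 without Control 2. *Icos*, a costimulatory receptor gene, was at 64.5, 90.4, 65.7 and 20.2 CPM in NK cells, 366, 509, 1142 and 495 CPM in T cells and 955, 1452, 1970.2 and 1196 CPM in ILC2. It was lower without overlap, at -3.09 ± 0.29 (SE) against T cells and -4.39 ± 0.30 (SE) against ILC2. *Lat*, an adaptor gene of T cell receptor signalling, was at 25.8, 38.3, 13.1 and 20.2 CPM against 183, 279.9, 169.5 and 217 CPM, lower without overlap at -2.97 ± 0.30 (SE). *Ctla4*, an inhibitory receptor gene, was at 0, 10.4, 0 and 6.74 CPM in NK cells and 94.8, 72.7, 80.3 and 141 CPM in T cells, at -3.80 ± 0.58 (SE) on the log2 scale, or -4.94 without Control 2. *Bcl11b*, a transcription factor gene, was lower than in T cells at -3.57 ± 0.44 (SE), or -4.29 without Control 2, and lower than in ILC2 at -3.77 ± 0.47 (SE), or -4.96 without Control 2. For *Ramp3*, the gene of a receptor partner protein, the values were -3.11 ± 0.44 (SE), or -3.93 without hucMSC-Exo 1, against T cells and -4.04 ± 0.44 (SE), or -4.91 without hucMSC-Exo 1, against ILC2. *Trat1*, an adaptor gene, was lower than in T cells at -2.95 ± 0.42 (SE). Of *Hlf*, a transcription factor gene, NK cells held 2 UMIs, and ILC2 were higher by 389-fold (95% counting interval 107 to 3217), at -8.14 ± 0.43 (SE) on the log2 scale, or -10.13 without Control 2. *Bmp2*, a growth factor gene, had 0 UMIs in NK cells, at least 21.4-fold lower than in ILC2. *Ero1l*, a gene of oxidative protein folding, was at 25.8, 20.9, 39.4 and 6.74 CPM against 223, 554, 721 and 747 CPM in ILC2, lower without overlap at -4.52 ± 0.39 (SE). *Paxbp1*, a chromatin adaptor gene, and *Pxdc1*, a gene of little known function, were lower than in ILC2 at -3.87 ± 0.40 and -3.84 ± 0.38 (SE).

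Outside the listed ribosomal protein genes, mitochondrial genes and rule genes, the highest mean levels in NK cells were those of *Gm42418*, which overlaps ribosomal RNA and is uncertain, *Malat1*, *Tmsb4x*, *Tpt1* and *Fau*, whose product includes a ribosomal protein. *Ccl5* followed in place 9 at 3606 ± 839 CPM (SD, n = 4) and *AW112010*, a transcript of activated lymphocytes, in place 10 at 3225 ± 1168 CPM (SD, n = 4). *AW112010* was at 3007, 4623, 1799 and 3469.8 CPM in NK cells, 649.8, 1192, 446 and 756 CPM in T cells and 248, 101, 35.9 and 128 CPM in ILC2. A UMI was found in 100% of NK cells, and NK cells were above both classes without overlap, by 2.14 ± 0.13 and 4.91 ± 0.29 (SE) on the log2 scale. Over the 16 sums of NK cells, T cells, ILC2 and neutrophils, the levels most like that of *Ncr1* were those of *Klra8* (Pearson r 0.964), *Klri2* (0.958), *Klra4* (0.958), *Arl4d* (0.939) and *Cox5b* (0.931). These coefficients describe n = 16 sums that share libraries and, for *Ncr1*, a class chosen by it.

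Some calls against T cells and ILC2 were lost under other settings. Without the NK cells that held 2 markers of another lineage, 7, 14, 5 and 11 NK cells remained, so only Control 2 and hucMSC-Exo 2 were tested. The markers included the keratinocyte and fibroblast genes, *S100a8* and *Apoe*, which neutrophils also held. Against T cells, the genes then no longer called were *Areg*, *Bhlhe40*, *Ccl4*, *Ccr2*, *Cd44*, *Cd7*, *Ctsd*, *Gzmb*, *Ifngr1*, *Itgae*, *Klrd1*, *Klrk1*, *Nkg7*, *Nrgn*, *Rgs1* and *Runx3*. Against ILC2, they were *Areg*, *Csf2*, *Fasl*, *Fos*, *Id2*, *Il2ra*, *Itgae*, *Jak1*, *Junb*, *Kit*, *Klf2*, *Ltb* and *Srgn*. A further run, chosen after seeing the data, left the keratinocyte and fibroblast genes, *S100a8*, *S100a9* and *Apoe* out of these markers. All 33, 51, 15 and 28 NK cells then remained, with 181 genes called against T cells and 335 against ILC2. DESeq2 did not call *Areg*, *Bhlhe40*, *Cd7*, *Cd96*, *Ctsd*, *Ifngr1*, *Itgb1*, *Klrd1*, *Klrk1*, *Ly6a* and *Runx3* against T cells or *Ctla2a*, *Itgb2*, *Kit* and *Tmem176b* against ILC2. Without the library as a block, *Areg*, *Ccl3*, *Ccl4*, *Ccr2*, *Cd7*, *Ctsd*, *Gzmb*, *Ifng*, *Ifngr1*, *Klrd1*, *Klrk1*, *Ly6a* and *Runx3* were not called against T cells, nor *Ctla2a*, *Dusp1*, *Fos*, *Itgb2*, *Kit*, *Ly6a* and *Srgn* against ILC2. At a rule of 3 of 5 markers, hucMSC-Exo 1 had 8 NK cells and stayed out of these tests. The losses were then *Ccl4*, *Klrd1* and *Klrk1* against T cells and *Ctla2a*, *Dusp1*, *Id2*, *Itgb2*, *Jak1*, *Junb*, *Kit*, *Klf2* and *Srgn* against ILC2. Leaving out hucMSC-Exo 1 alone also lost *Ccl4* and *Klrd1* against T cells. With no filter on low counts, *Ctsd*, *Klrk1* and *Runx3* and, against ILC2, *Ctla2a*, *Id2*, *Itgb2* and *Srgn* were lost, and with no upper limit on genes per cell *Ctsd* and, against ILC2, *Ctla2a* and *Id2*. These lists name genes described above and not every gene lost.

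Between hucMSC-Exo and Control, the test by edgeR (quasi-likelihood) of the NK sums covered 1965 genes. At a Benjamini-Hochberg adjusted p under 0.05, 0 genes were called (0%), and the lowest adjusted p was 0.485. At an unadjusted p under 0.05 there were 62 genes (3.16%), 39 higher and 23 lower in hucMSC-Exo, and DESeq2 called 1 gene, *Ifitm2*. The median log2 fold change over all genes tested was -0.0096. Of the 1965 genes tested, both hucMSC-Exo libraries lay above both Control libraries for 311 and below both for 288. Groups without overlap were thus common among all genes tested, which holds for the single genes described below. Leaving out libraries changed the count, with 17 genes without Control 1, 10 without Control 2, 7 without hucMSC-Exo 1 and 0 without hucMSC-Exo 2. The lone library of a group was then assumed to vary like the other group.

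None of the lists held a called gene in this comparison. Of the activating receptor genes 12 of 20 were tested, of the inhibitory 5 of 14, of the granule genes 12 of 16, of the cytokines 8 of 14 and of the cytokine receptors 12 of 21. Their medians on the log2 scale were 0.039, -0.28, -0.044, -0.27 and -0.27. Homing genes were tested for 9 of 18, transcription factors for 11 of 16, immature genes for 8 of 8, mature genes for 2 of 9 and residency genes for 3 of 13, with medians of 0.049, -0.18, -0.37, -0.31 and -0.45. The proliferation, interferon-induced, stress and ribosomal lists had 3 of 8, 4 of 10, 11 of 12 and 83 of 99 tested and medians of 0.76, 0.81, -0.028 and 0.074. Some widely used marker genes lay close in both groups, with *Klrk1* at 490.4, 522, 473 and 478 CPM and a log2 fold change of -0.095 ± 0.27 (SE), *Prf1* at -0.045 ± 0.38 (SE) and *Nkg7* at -0.14 ± 0.23 (SE). A difference within these errors was not detectable with 2 libraries per group.

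The listed genes with an unadjusted p under 0.05, outside the ribosomal list, are given with their values, and none passed adjustment. *Ccl5* was at 4498, 4122, 2732 and 3072 CPM, with both Control libraries above both hucMSC-Exo libraries. Its log2 fold change was -0.57 ± 0.14 (SE), with a Benjamini-Hochberg adjusted p of 0.997 in edgeR. *Klrb1b* was at 361, 327, 197 and 216 CPM and also below Control without overlap, at -0.72 ± 0.30 (SE). *Junb* stood at 1613, 1325, 1077 and 970.2 CPM, at -0.53 ± 0.21 (SE), and *Rora* at 116, 209, 78.8 and 33.7 CPM, at -1.72 ± 0.53 (SE). Each of these 4 genes had its lowest Control value above its highest hucMSC-Exo value, which held for 288 of the 1965 genes tested. *Rora* was called (edgeR, Benjamini-Hochberg) without Control 1 (0.0138). On the higher side, *Stmn1*, a gene of dividing cells, was at 213, 104, 433 and 243 CPM. Its log2 fold change was 1.08 ± 0.45 (SE), and -0.034 when cells over 3000 genes were kept. The UMIs of *Stmn1* numbered 33, 30, 33 and 36 in 8, 11, 2 and 9 cells, and in hucMSC-Exo 1 a single cell held 29 of the 33. *Fos*, an early response factor gene, was at 109.7, 115, 197 and 566 CPM, with hucMSC-Exo 2 the highest. In hucMSC-Exo 2, 47 of its 84 UMIs came from 1 cell. The log2 fold change of *Fos* was 1.83 ± 0.49 (SE), or 0.74 without hucMSC-Exo 2, and it was called (edgeR, Benjamini-Hochberg) without Control 1 (0.0334) and without hucMSC-Exo 1 (9.50e-05). *Gzmc* was at 187, 949.6, 1852 and 1637 CPM, both hucMSC-Exo libraries being above both Control libraries. That gave 1.58 ± 0.57 (SE) on the log2 scale, 0.89 without Control 1 and 3.19 without Control 2, and the top cell of each library held 16, 138, 73 and 123 of 29, 273, 141 and 243 UMIs. It was called (edgeR, Benjamini-Hochberg) without Control 2 (2.24e-11) and without hucMSC-Exo 1 (0.00137). With all libraries, these genes had a Benjamini-Hochberg adjusted p of 0.997 in edgeR.

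The genes of this paragraph lie outside the lists or the naming rule for this comparison and were chosen after their values were seen. *Ifitm2*, which encodes a membrane protein that restricts virus entry, was at 38.7, 83.5, 630.4 and 317 CPM, with both hucMSC-Exo libraries above both Control libraries. Its log2 fold change was 2.80 ± 0.47 (SE; edgeR, Benjamini-Hochberg adjusted p = 0.485), 3.51 without Control 2, and DESeq2 gave 2.87 with a Benjamini-Hochberg adjusted p of 0.00313. With 1 library left out, it was called (edgeR, Benjamini-Hochberg) without Control 1 (0.00118), without Control 2 (1.06e-05) and without hucMSC-Exo 1 (0.000952). Behind these levels were 6, 24, 48 and 47 UMIs in 5, 8, 4 and 3 cells. In hucMSC-Exo 1 a single cell held 38 of the 48 UMIs, and in hucMSC-Exo 2 the top 2 cells held 46 of the 47. *Ifitm3*, a gene of the same family, was at 45.2, 27.8, 184 and 175 CPM, likewise without overlap, with 11 of 14 and 20 of 26 UMIs of the hucMSC-Exo libraries in the top cell of each. Its log2 fold change was 2.35 ± 0.42 (SE; edgeR, Benjamini-Hochberg adjusted p = 0.485), and it was called without Control 1 (0.00122) and without hucMSC-Exo 1 (0.0256). Neutrophils had a UMI of *Ifitm2* in 98.7% and of *Ifitm3* in 80.4% of cells, and their share of the kept cells was 4.83, 13.2, 4.80 and 23.3%. Their list summed to 25.8, 90.4, 105 and 20.2 CPM in NK cells, with *Csf3r*, *Cxcr2*, *Retnlg*, *Trem1* and *Ly6g* at 0 and *S100a8* the most abundant, and a part of neutrophil RNA in these values was not tested. *Hist1h2bc*, a histone gene, was at 38.7, 111, 315 and 384 CPM without overlap, with a log2 fold change of 2.12 ± 0.45 (SE), or 3.15 without Control 2. Its adjusted p (edgeR, Benjamini-Hochberg) was 0.997, and it was called without Control 2 (0.000284) and without hucMSC-Exo 1 (0.000682). *Plac8*, a lysosomal protein gene of myeloid and lymphoid cells, stood apart in Control 2, at 51.6, 873, 249.5 and 263 CPM and with a UMI in 21 of its 51 NK cells. The heat shock gene *Hspa1a* was at 1787, 73.0, 381 and 883 CPM, so Control 1 and Control 2 had the highest and the lowest value and the groups overlapped.

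**Figure D3:**
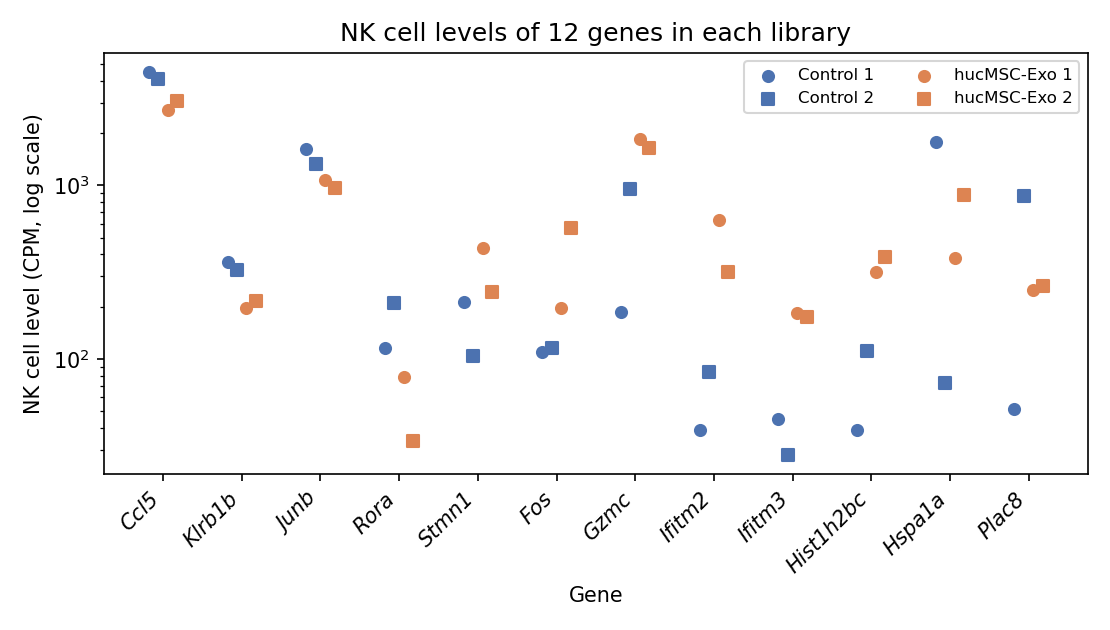
NK cell levels in CPM on a log axis for 12 genes in each library, with circles for library 1 and squares for library 2 of Control (blue) and hucMSC-Exo (orange). *Ccl5* was at 4498, 4122, 2732 and 3072 CPM and *Hspa1a* at 1787, 73.0, 381 and 883 CPM.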

How the data were processed

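Cell Ranger 6.1.2 on mm10 was used by the authors for the deposited counts, which are whole UMIs per gene and cell of 4 droplet libraries. Whether the deposited cells are those left after the authors' doublet filter or immune selection is not stated. No doublet caller was run here, and markers of other lineages in the same cell were read instead. Members and lists were chosen with earlier results of these data known. UMIs were summed per library and class and tested with edgeR 4.0.16 (TMM, filterByExpr, quasi-likelihood) in R 4.3.3, with DESeq2 1.42.0 as an alternative, after a run on simulated data. Named genes are those of the lists, the 10 largest called changes per direction with the same sign in every library, the 20 most abundant genes and the 5 most like *Ncr1*. Shares were tested by exact permutation with scipy 1.17.1, and cells were thinned to 1000 UMIs where depths differed. Sums of fewer than 10 cells were not used. Intervals and floors cover counting error only. Positions are from GENCODE (GRCm38).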

Additional observations from a re-analysis of the deposited data

How the results depend on the processing

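The difference between groups in NK share of kept cells kept its direction under every alternative run, from -0.254 to -2.24 percentage points, and with libraries paired by replicate number as a block it was -1.73 points (exact p = 0.5). With that block, 0 genes were called between hucMSC-Exo and Control, and 0 with crossed pairs, chosen after seeing the data. That comparison gave 1 gene with DESeq2, 9 without the filter on low counts, 7 with at least 3 of 5 markers (which leaves hucMSC-Exo 1 with 8 cells, so it stays out) and between 0 and 17 with 1 library left out. Against T cells, 106 genes were called with DESeq2, all among the 181, 357 without the filter, 94 without NK cells with 2 markers of another lineage, and 143 to 226 with 1 library left out. Against ILC2 the counts were 210 with at least 3 markers (hucMSC-Exo 1 again staying out), 582 without the filter, 106 without NK cells with markers of another lineage, 232 with DESeq2 (229 shared) and 201 to 343 with 1 library left out. The log2 fold change of *Stmn1* between groups turned from 1.08 to -0.034 without the upper limit of 3000 genes; the cause was not tested. Of 61 listed or named genes called against T cells, 13 lost the call in at least 1 leave-out, and of 84 against ILC2, 19 did. The filter on other lineages leaves 7, 14, 5 and 11 NK cells, so the group comparison gave no value and the class comparisons rest on Control 2 and hucMSC-Exo 2, with 1 call against T cells and 2 against ILC2 reversed. With the keratinocyte and fibroblast genes, *S100a8*, *S100a9* and *Apoe* left out, chosen after seeing the data, that filter removed no NK cell. Requiring *Cd3g*, *Trbc1*, *Trbc2*, *Cd8a* and *Cd4* at 0 leaves 6, 4, 1 and 4 cells, which gave a share difference of -0.276 points with overlapping groups and no gene test. Few cells per library and 1 mouse per library limit all group values.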
